A study of Mus musculus with 12 samples.

Results

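The genes described are 8 transcription factors of keratinocyte differentiation, Trp63, Grhl1, Grhl3, Ovol1, Klf4, Elf3, Sox9 and Bcl11b, out of 22180 genes measured. They were chosen by name, with earlier results of these data known. Shares of all genes printed beside their counts are therefore a background, not a test. Each member was read from the 1 probe set that the platform annotation assigns to it. The cells were mouse keratinocytes in culture, the cells that build the epidermis. All of them carried Atg7 alleles flanked by recombination sites (Atg7 f/f). KO cells also carried the K14::Cre recombinase, which a basal keratin promoter drives and which removes Atg7 and so autophagy, while wt cells lacked it (K14::Cre -). No wt array comes from cells that carried the recombinase, so its presence and the loss of Atg7 cannot be told apart. The 4 groups were KO paraquat, KO sham, wt paraquat and wt sham, each with 3 arrays. Paraquat, a herbicide whose redox cycling yields superoxide, was given at 20 µM, and RNA was taken after 48 h. The labels call the arrays biological triplicates and do not tie them to animals, so p-values measure only the spread between these samples. The sources used here do not give the mice's age, sex or strain.

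In the epidermis, basal cells divide on the basement membrane and then leave it, passing through the spinous and granular layers before they die as cornified cells. p63, the product of Trp63, is the master regulator of stratified epithelium and keeps the basal programme running. The grainyhead-like factors GRHL1 and GRHL3, the zinc finger factors OVOL1 and KLF4 and the ETS family factor ELF3 act later, when cells stop dividing and build the barrier. SOX9 marks hair follicle progenitors, and BCL11B is a zinc finger repressor of developing skin that also commits T cells to their lineage. In build GRCm38.p6 (RefSeq) Trp63 lies at chr16:25683763-25892088, Grhl1 at chr12:24572232-24617391, Grhl3 at chr4:135541887-135573632 and Ovol1 at chr19:5549137-5560575. Klf4 lies at chr4:55527137-55532475, Elf3 at chr1:135253574-135258472, Sox9 at chr11:112782210-112787757 and Bcl11b at chr12:107910403-108004145.

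Promoter windows are shown for 3 members whose signal was higher under paraquat in both genotypes (Grhl3, Elf3 and Klf4) and for Bcl11b, whose signal did not pass the test under paraquat. Each runs 5′ to 3′ from 250 bases before to 50 bases after a transcript start in RefSeq, build GRCm38.p6. Capitals mark CACCC, the core letters of KLF sites, and GGAAG, a core of ETS sites, on either strand.
Grhl3 (chr4:135573583-135573882, minus strand): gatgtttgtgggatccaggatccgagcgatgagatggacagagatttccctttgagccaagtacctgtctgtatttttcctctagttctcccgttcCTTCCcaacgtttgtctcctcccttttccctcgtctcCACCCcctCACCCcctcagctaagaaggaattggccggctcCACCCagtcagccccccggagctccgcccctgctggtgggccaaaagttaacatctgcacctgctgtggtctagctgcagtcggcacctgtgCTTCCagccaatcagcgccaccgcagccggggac
Elf3 (chr1:135258423-135258722, minus strand): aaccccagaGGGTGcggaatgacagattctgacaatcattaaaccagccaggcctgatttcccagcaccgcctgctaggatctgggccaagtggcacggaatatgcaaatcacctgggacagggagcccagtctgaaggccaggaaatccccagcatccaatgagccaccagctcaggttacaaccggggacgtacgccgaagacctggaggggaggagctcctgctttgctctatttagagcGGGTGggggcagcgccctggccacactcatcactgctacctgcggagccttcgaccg
Klf4 (chr4:55532426-55532725, minus strand): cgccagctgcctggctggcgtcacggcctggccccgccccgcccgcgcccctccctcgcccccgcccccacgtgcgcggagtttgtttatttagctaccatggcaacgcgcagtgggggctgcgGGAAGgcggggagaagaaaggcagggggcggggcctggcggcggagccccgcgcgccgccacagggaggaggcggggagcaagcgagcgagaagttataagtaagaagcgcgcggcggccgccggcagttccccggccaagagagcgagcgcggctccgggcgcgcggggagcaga
Bcl11b (chr12:108003365-108003664, minus strand): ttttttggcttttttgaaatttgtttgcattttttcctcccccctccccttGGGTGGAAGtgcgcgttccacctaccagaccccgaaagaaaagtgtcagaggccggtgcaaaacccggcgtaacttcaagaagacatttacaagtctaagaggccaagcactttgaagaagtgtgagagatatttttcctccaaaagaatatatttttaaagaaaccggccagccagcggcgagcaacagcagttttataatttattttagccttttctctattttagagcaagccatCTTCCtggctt

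RefSeq windows were matched for 5 of the 8 members by symbol, with a pair of windows for Grhl1, 6 in all. The Grhl3 window held CACCC at 117, 109 and 76 bases before the start and GGAAG at 154 bases before and 16 bases after it. The Elf3 window held CACCC at 241 and 7 bases before the start, and the Klf4 window held GGAAG at 126 bases before it. In the Bcl11b window, CACCC at 199 and GGAAG at 195 bases before the start share a base, and a further GGAAG lay 39 bases after it. Of the Grhl1 windows, one held neither motif and the other held GGAAG at 201 and 21 bases and CACCC at 81 and 29 bases before the start. Over the 6 windows, 4 held CACCC and 4 held GGAAG, against 57.5% and 71.4% of 32851 mouse windows of the same length. The windows with these letters included that of Bcl11b as well as those of members that rose. The letters of GRHL sites (AACCNGTT), OVOL sites (CCGTTA), SOX sites (ACAATG) and p63 sites (a pair of CATG cores 6 bases apart) were found in 0 of the 6 windows on either strand. Over all windows they were held by 2.09%, 2.76%, 12.6% and 0.712%. A match describes letters only, and the lack of one says only that those letters are not in this window.

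The arrays were first checked against their labels. Atg7 signals were 96 to 148 in the 6 KO arrays and 286 to 457 in the 6 wt arrays. Of 10 listed keratinocyte markers, which include the member Trp63, 9 were measured. All 9 averaged above the median of all values (44) in every group. Their summed signal was 46015 to 49312 in KO paraquat against 46454 to 48224 in KO sham, and 45882 to 47497 in wt paraquat against 46490 to 48354 in wt sham. Median signals per array were 42 to 45, and precision is limited by having 3 arrays per group. On the first principal component wt sham 2 (-25.8) stood apart from its group (-36.0 and -35.3). On the second it lay at the end of a widely spread group (-31.4, with -11.4 and -20.4 for the others). On the third, KO paraquat 3 (-19.7) stood apart from its group (-5.52 and -6.34), and wt paraquat 3 (2.83) from its own (13.1 and 11.3). Calls lost without wt sham 2 or without KO paraquat 3 are given as such.

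**Figure D1:**
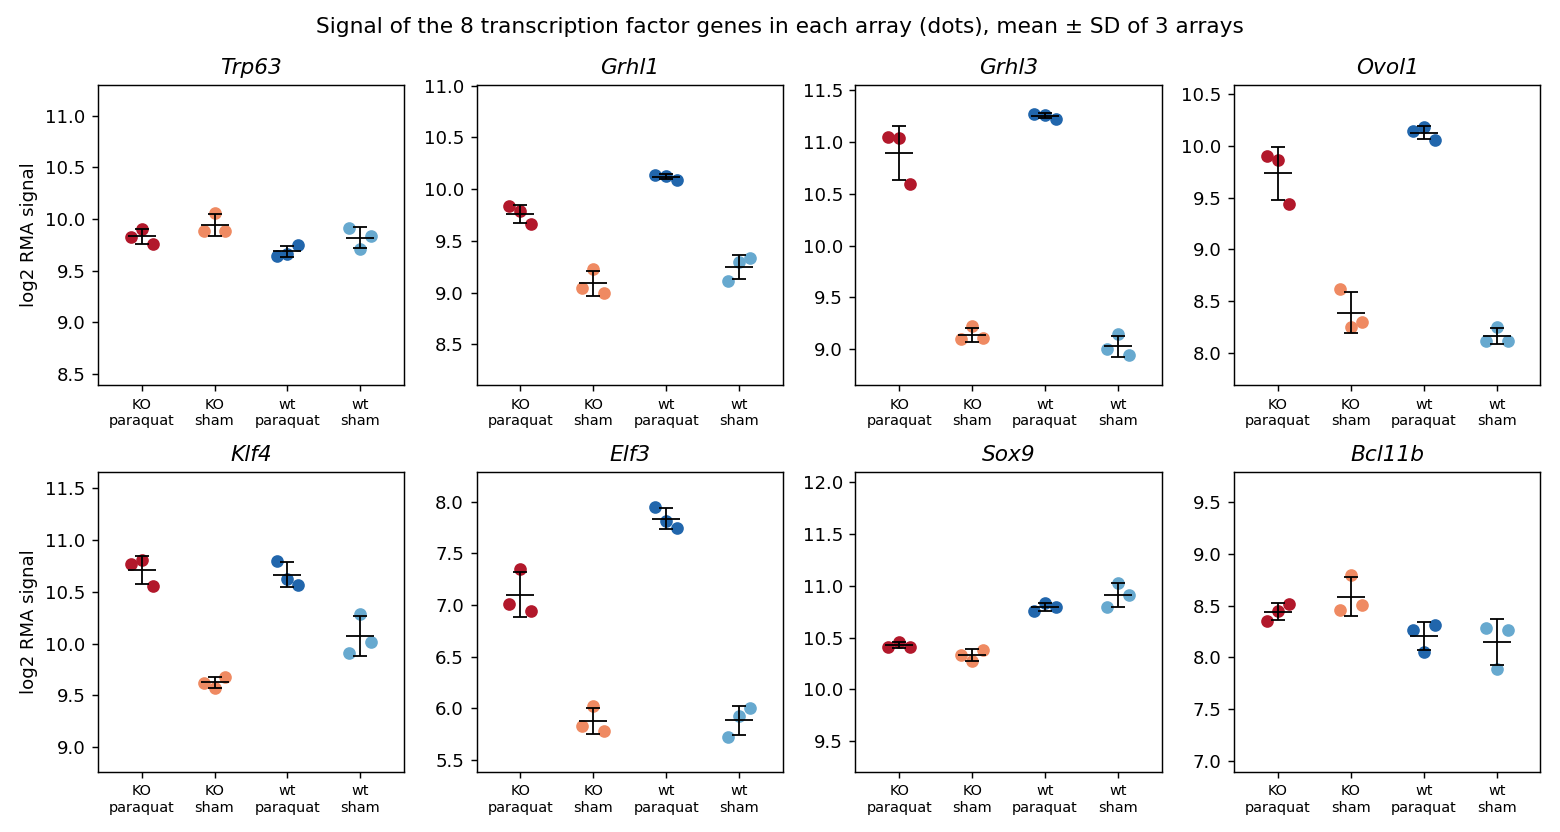
Each panel shows log2 RMA signal (y axis) of 1 gene in the 12 arrays (dots), by group, with the mean and SD of 3 arrays in black. All panels span the same range of log2 units around their own centre. Grhl1, Grhl3, Ovol1, Klf4 and Elf3 stand higher in paraquat than in sham arrays of both genotypes, and Sox9 stands lower in all KO arrays than in all wt arrays.

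The first question was how the factors respond to paraquat in cells with autophagy. In wt, 5 of the 8 members rose (Grhl3, Ovol1, Elf3, Grhl1 and Klf4) and 0 fell at an adjusted p under 0.05 in limma, also 0 at an unadjusted p under 0.05. Over all genes 14.9% rose and 14.3% fell, 29.2% together. The 5 that rose act in differentiating layers, whereas Trp63, Sox9 and Bcl11b did not pass the test. This division of the 8 was drawn with their values seen, and other epidermal factors, given below, both rose and fell. The arrays of the 2 treatments did not overlap for the same 5 members, against 37.6% of all genes. The median log2 change was 0.73 over the members and 0.01 over all genes. Fewer cells of a kind and less RNA per cell cannot be told apart in such bulk samples.

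Grhl3, which is needed for barrier formation and wound closure in mouse skin, had the largest change among the 8. Its signals were 2477, 2455 and 2397 in wt paraquat, against 512, 565 and 493 in wt sham. All paraquat arrays stood far above all sham arrays, with a spread within groups that was small beside the gap. The rise was 4.68-fold (log2 change 2.23, SE 0.11, 3 arrays in each group, adjusted p = 1.46e-08).

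Ovol1, a zinc finger repressor that promotes exit from the cell cycle in epidermal progenitors, had signals of 1131, 1164 and 1065 in wt paraquat, against 278, 305 and 278 in wt sham. The groups were wide apart, and the rise was 3.90-fold (log2 1.96 ± 0.13, adjusted p = 9.17e-08). Elf3, an ETS factor of epithelial differentiation, had signals of 247, 224 and 215 in wt paraquat, against 53, 61 and 64 in wt sham. The sham values lie close to the array medians, and no detection call was used here. The rise was 3.86-fold (log2 1.95 ± 0.12, adjusted p = 5.64e-08).

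Grhl1, which regulates desmosomal cadherin genes in mouse skin, had signals of 1129, 1121 and 1091 in wt paraquat, against 554, 630 and 645 in wt sham. It rose 1.83-fold (log2 0.87 ± 0.09, adjusted p = 6.14e-06), and its paraquat arrays were the most alike of the 8 members after those of Grhl3 on the log2 scale. Klf4, a factor required for the mouse skin barrier, had signals of 1783, 1583 and 1516 in wt paraquat, against 962, 1246 and 1038 in wt sham. Its rise of 1.51-fold was the smallest of the 5 (log2 0.59 ± 0.11, adjusted p = 7.93e-04), and wt sham 2 was the highest sham array. Without wt sham 2 the log2 change was 0.70.

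The remaining 3 members had wt paraquat arrays within or next to the range of the sham arrays. Trp63 signals were 801, 811 and 862 in wt paraquat, against 961, 838 and 914 in wt sham (log2 -0.13, 95% interval -0.31 to 0.05, adjusted p = 0.302). Sox9 signals were 1732, 1823 and 1774 in wt paraquat, against 1777, 2094 and 1925 in wt sham (log2 -0.12, 95% interval -0.29 to 0.05, adjusted p = 0.320). Bcl11b signals were 307, 266 and 317 in wt paraquat, against 311, 237 and 307 in wt sham (log2 0.06, 95% interval -0.20 to 0.33, adjusted p = 0.767). The intervals here are those of the fit, with no adjustment over genes, and they leave room for changes of either sign. The sign for Bcl11b turned without wt sham 2, where its log2 change was -0.06.

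The response of KO cells was tested next, with their own sham arrays. Grhl3, Ovol1, Elf3, Klf4 and Grhl1 rose in KO as well, 5 of 8, and 0 members fell, also at an unadjusted p under 0.05, against 14.5% of all genes that rose and 12.6% that fell, 27.1% together. The arrays of 6 members did not overlap between treatments, against 37.2% of all genes, and the sixth was Sox9, which did not pass the test. The median log2 change was 0.88 over the members and 0.01 over all genes.

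Grhl3 signals were 2123, 2113 and 1549 in KO paraquat, against 549, 596 and 550 in KO sham. KO paraquat 3 was well below the other paraquat arrays and still far above every sham array. The rise was 3.38-fold (log2 change 1.76, SE 0.11, 3 arrays in each group, adjusted p = 2.2e-07), and 1.91 on the log2 scale without KO paraquat 3. Ovol1 showed the same outlying array, with 955, 933 and 695 in KO paraquat against 392, 305 and 316 in KO sham, a rise of 2.54-fold (log2 1.34 ± 0.13, adjusted p = 4.58e-06), and 1.49 on the log2 scale without that array.

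Elf3 signals were 129, 163 and 123 in KO paraquat, against 57, 65 and 55 in KO sham. The 2.33-fold rise (log2 1.22 ± 0.12, adjusted p = 5.64e-06) again started near the array medians. Klf4 signals were 1747, 1795 and 1509 in KO paraquat, against 789, 763 and 820 in KO sham. The sham arrays of Klf4 lay close together and below every wt sham array, and the rise was 2.12-fold (log2 1.09 ± 0.11, adjusted p = 7.13e-06). Grhl1 signals were 912, 886 and 811 in KO paraquat, against 529, 599 and 510 in KO sham, a rise of 1.59-fold (log2 0.67 ± 0.09, adjusted p = 7.89e-05).

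Trp63 signals in KO were 910, 959 and 868 under paraquat, against 943, 1068 and 946 in sham, which overlap (log2 -0.11, 95% interval -0.29 to 0.07, adjusted p = 0.401). Sox9 signals were 1362, 1410 and 1360 in KO paraquat, against 1290, 1239 and 1336 in KO sham. The Sox9 arrays were narrowly apart (log2 0.10, 95% interval -0.07 to 0.27, adjusted p = 0.432). Bcl11b signals were 327, 349 and 366 in KO paraquat, against 352, 445 and 363 in KO sham, with overlap (log2 -0.15, 95% interval -0.42 to 0.12, adjusted p = 0.444).

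**Figure D2:**
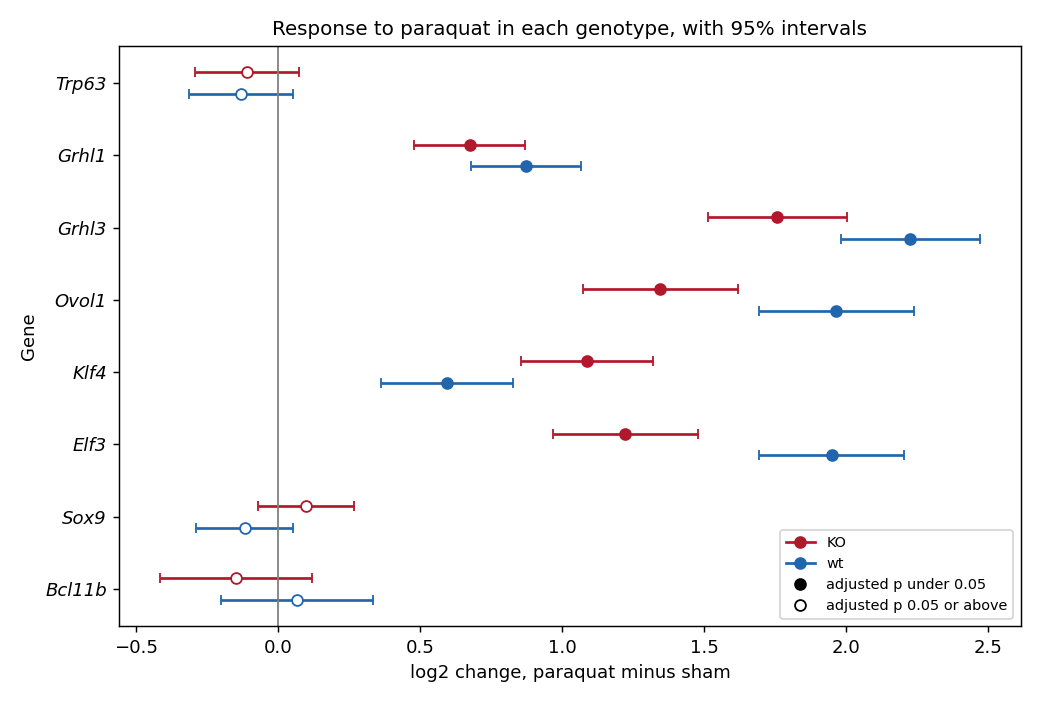
Points give the log2 change of paraquat minus sham (x axis) for each gene, in KO (red) and wt (blue), with 95% intervals from the fit. Filled points have an adjusted p under 0.05. Grhl1, Grhl3, Ovol1 and Elf3 have larger estimates in wt and Klf4 in KO, and of these differences only that of Elf3 passed its own test.

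Whether the responses differed between genotypes was tested directly, as the KO response minus the wt response. Of the 8 members, 1 passed, against 2.29% of all genes (1.39% higher and 0.897% lower). The rise of Elf3 was smaller in KO by a log2 difference of -0.73 ± 0.17 (SE, 95% interval -1.09 to -0.37, adjusted p = 0.0417). This call held in 7 of 22 alternatives, with adjusted p from 0.0190 to 0.132, and it was lost when any 1 array was left out, except KO paraquat 2. The estimates kept their sign in all 22, from -0.85 to -0.65. Of the other cell types' markers, Cd68, a lysosomal protein of macrophages, had a smaller rise in KO (log2 difference -0.59, adjusted p = 0.0363). The sebaceous gene Mc5r had a negative difference (-0.48, adjusted p = 0.0498). Mc5r averaged 25.7 in KO paraquat, 27 in KO sham, 31 in wt paraquat and 23.3 in wt sham, all below the array medians. Neither call was followed under the alternatives, and the part of these cell types in the Elf3 result was not tested.

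The other differences in response missed the threshold. They were -0.62 for Ovol1 (95% interval -1.01 to -0.23, adjusted p = 0.0973) and -0.47 for Grhl3 (-0.81 to -0.12, adjusted p = 0.165) on the log2 scale. For Klf4 the difference ran the other way, at 0.49 (0.16 to 0.82, adjusted p = 0.124). The intervals exclude 0 before adjustment over genes, and after it none of the 3 was called. Without KO paraquat 3 the Grhl3 difference was -0.32 and the Ovol1 difference -0.47, and without wt sham 2 the Klf4 difference was 0.39.

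KO and wt cells were next compared in sham cultures. These differences share the sham arrays with the responses above, so neither is independent of the other. In KO, 2 members were lower (Sox9 and Klf4) and 1 was higher (Bcl11b), 3 of 8, against 10.2% of all genes (4.58% higher and 5.67% lower). The same 3 members had arrays that did not overlap, against 22.7% of all genes. The factors with the largest responses, Grhl3, Ovol1 and Elf3, did not pass here.

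Sox9, the hair follicle progenitor factor, had 1290, 1239 and 1336 in KO sham, against the wt sham signals of 1777, 2094 and 1925 given above. Every KO array was below every wt array. The level in KO was 1.497-fold lower (log2 difference -0.58, SE 0.08, 3 arrays in each group, adjusted p = 5.9e-04), and this held in all 23 alternatives. Of 8 hair follicle and sebaceous markers, 1 was higher in KO sham (Scd1, a sebaceous lipid desaturase, log2 0.66) and 0 lower in limma, with 1 lower at an unadjusted p under 0.05. Their summed signal was 1771 to 1877 in KO sham and 1116 to 1524 in wt sham. Most of that sum was Scd1, and the sum of the other 7 markers ran the other way, at 288 to 322 in KO sham and 326 to 351 in wt sham. Among the hair follicle progenitor genes, Gli2, a hedgehog pathway factor (log2 -0.72), and Foxc1, a forkhead factor (-0.43), were lower in KO sham like Sox9, while Ptch1 (0.36) and Lrig1 (0.37) were higher. The follicle stem cell gene Lgr5 averaged 23 in KO sham and 24.3 in wt sham, below the array medians. The part of such cells in the Sox9 result was not tested.

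Klf4 averaged 791 ± 28.5 in KO sham and 1082 ± 147 in wt sham (SD, n = 3 each), 1.36-fold lower in KO (log2 -0.44 ± 0.11, SE, adjusted p = 0.0189). Bcl11b averaged 387 ± 50.8 in KO sham and 285 ± 41.6 in wt sham, 1.36-fold higher in KO (log2 0.44 ± 0.12, SE, adjusted p = 0.0377). The array wt sham 2 had the highest Klf4 and the lowest Bcl11b signal of its group. Without it the log2 differences were -0.34 (adjusted p = 0.0779) and 0.32 (adjusted p = 0.149). Over the alternatives the Klf4 call held in 18 of 23 (adjusted p 0.00705 to 0.0779) and the Bcl11b call in 12 of 23 (0.0184 to 0.162). The Klf4 call was also lost without KO sham 1 or KO sham 2 (log2 -0.44 and -0.42). That of Bcl11b was also lost without wt sham 3, KO sham 2 or KO sham 3 (0.50, 0.34 and 0.48), or without wt paraquat 1 or KO paraquat 2, which left its value as it was. Bcl11b is also a T cell gene. Of 8 listed T cell markers 6 were measured, and 0 of these passed in limma (1 lower at an unadjusted p under 0.05). Cd3e, a chain of the T cell receptor complex, averaged 29 in KO sham and 34.3 in wt sham, below the array medians. The summed signal of these markers was 172 to 188 in KO sham and 195 to 222 in wt sham. The part of T cells in the Bcl11b result was not tested. Of the remaining marker lists, 1 myeloid marker was higher and 1 lower in KO sham and 1 endothelial marker was higher, while 0 keratinocyte, 0 melanocyte and 0 fibroblast markers passed in limma (1, 0 and 3 at an unadjusted p under 0.05). The myeloid markers were Adgre1 (19 in KO sham and 15 in wt sham) and Itgam (25.3 and 31.7), both below the array medians. The endothelial one was Tek (46.3 in KO sham and 30 in wt sham).

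Grhl3, Ovol1, Grhl1, Trp63 and Elf3 did not pass in sham cultures. Their log2 differences, KO minus wt, were 0.11 for Grhl3 (95% interval -0.13 to 0.36), 0.23 for Ovol1 (-0.05 to 0.50) and -0.16 for Grhl1 (-0.35 to 0.03). For Trp63 the difference was 0.12 (-0.06 to 0.31) and for Elf3 -0.01 (-0.26 to 0.25), with a sign for Elf3 that turned when single arrays were left out.

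**Figure D3:**
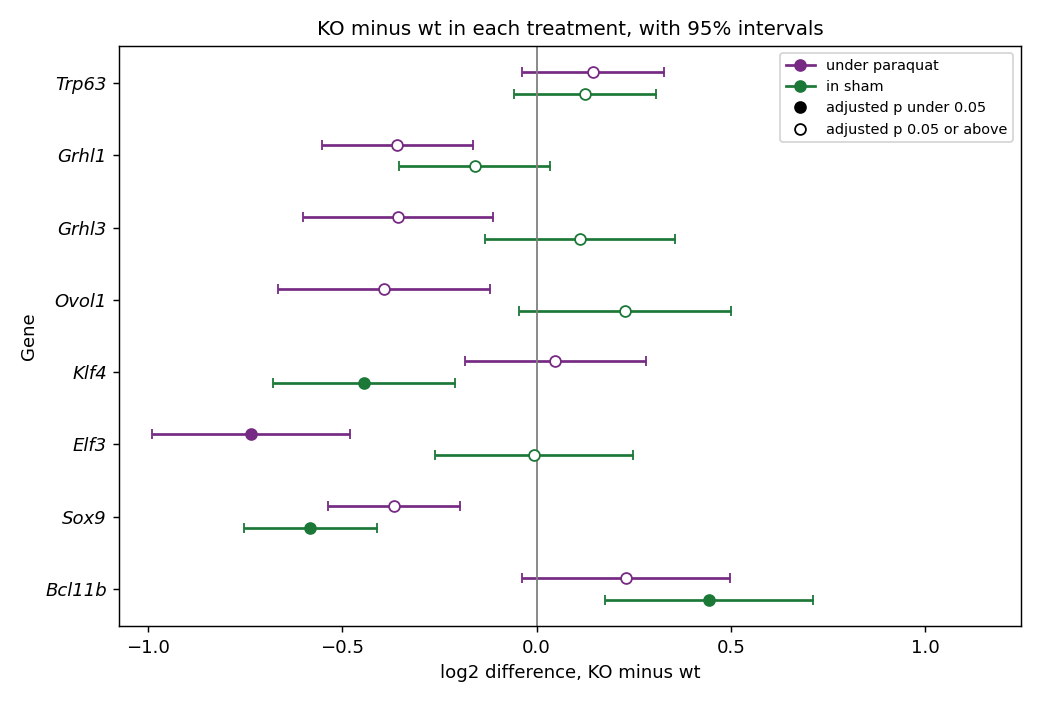
Points give the log2 difference of KO minus wt (x axis) for each gene, under paraquat (purple) and in sham (green), with 95% intervals from the fit. Filled points have an adjusted p under 0.05. Elf3 is filled under paraquat, at -0.73, and Sox9, Klf4 and Bcl11b are filled in sham, at -0.58, -0.44 and 0.44.

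Under paraquat, 1 of 8 members, Elf3, passed between genotypes, against 0.55% of all genes (0.0992% higher and 0.451% lower). Elf3 averaged 138 ± 21.6 in KO paraquat and 229 ± 16.5 in wt paraquat (SD, n = 3 each), 1.66-fold lower in KO (log2 -0.73 ± 0.12, SE, adjusted p = 0.0150). The call held in 16 of 23 alternatives (adjusted p 0.00686 to 0.107). It was lost without wt paraquat 1 (log2 -0.68), wt paraquat 2 (-0.75), KO paraquat 1 (-0.69) or KO paraquat 3 (-0.65). Of the 8 hair follicle and sebaceous markers 1 was lower in KO paraquat, the companion layer keratin Krt75 (log2 -0.48), and their summed signal was 1180 to 1320 in KO paraquat and 1118 to 1228 in wt paraquat. Without Scd1, the brightest, the sum was lower in KO, at 387 to 393 in KO paraquat and 430 to 499 in wt paraquat. The part of such cells in the Elf3 result was not tested.

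The arrays of 7 members did not overlap between KO paraquat and wt paraquat, against 17% of all genes. Grhl1, Grhl3, Ovol1, Elf3 and Sox9 were lower in each KO array than in each wt array, while Trp63 and Bcl11b were higher. Except for Elf3 these differences missed the threshold. The log2 difference was -0.37 for Sox9 (95% interval -0.54 to -0.20, adjusted p = 0.0624, past the threshold in 5 of 23 alternatives), -0.36 for Grhl1 (-0.55 to -0.16, adjusted p = 0.112) and -0.36 for Grhl3 (-0.60 to -0.11, adjusted p = 0.224). It was -0.39 for Ovol1 (-0.67 to -0.12, adjusted p = 0.232), 0.23 for Bcl11b (-0.04 to 0.50, adjusted p = 0.538) and 0.15 for Trp63 (-0.04 to 0.33, adjusted p = 0.577). Without KO paraquat 3 the estimates were -0.21 for Grhl3 and -0.25 for Ovol1, each more than 1.5 times smaller. Klf4 had overlapping arrays here (log2 0.05, -0.18 to 0.28, adjusted p = 0.919).

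The order of the 4 groups differed among the members. For Grhl3 and Ovol1 it ran wt paraquat, KO paraquat, KO sham, wt sham, and for Grhl1 and Elf3 wt paraquat, KO paraquat, wt sham, KO sham, with overlap in each of the 4 only between the sham groups. Klf4 ran KO paraquat, wt paraquat, wt sham, KO sham, with overlap only between the paraquat groups. Sox9 ran wt sham, wt paraquat, KO paraquat, KO sham, and only its wt groups overlapped. Bcl11b ran KO sham, KO paraquat, wt paraquat, wt sham, with overlap within each genotype, and all neighbours of Trp63 overlapped.

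Other transcription factors of the epidermis were read from a list of 42, of which 39 were measured. In KO 18 rose and 9 fell under paraquat, with a median log2 change of 0.19, and in wt 18 rose and 9 fell, with a median of 0.25, against 0.01 over all genes in each. Of all genes, 14.5% rose and 12.6% fell in KO, and 14.9% rose and 14.3% fell in wt. Prdm1, a repressor of the outer epidermal layers, rose by log2 1.88 in KO and by 1.99 in wt. Cebpa, a C/EBP factor of growth arrest and differentiation, rose by 1.42 in KO and 1.35 in wt. Dlx3, a homeobox factor of the granular layer, rose by 1.62 in KO and 1.49 in wt. Ppard, a nuclear receptor of lipid metabolism, rose by 1.26 in KO and 0.80 in wt. Bnc2, a zinc finger gene of the basonuclin family, fell by 1.43 on the log2 scale in wt (-0.79 in KO). Among others that fell in both genotypes, named with their values seen, were Maf (log2 -0.89 in KO and -0.72 in wt) and Hes1 (-0.95 and -0.93). Gata3 (-0.32 and -0.35) and Pou2f3 (-0.42 and -0.46) fell too. Between genotypes 2 of the 39 were higher and 7 lower in KO sham than in wt sham, against 4.58% and 5.67% of all genes. Under paraquat 0 passed in limma, with 4 higher and 6 lower in KO at an unadjusted p under 0.05.

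Relatives of the members within that list behaved unequally, and they are named here for their family, with their values already seen. Grhl2, the third grainyhead-like gene, fell where Grhl1 and Grhl3 rose, with log2 changes of -0.30 in KO (adjusted p = 0.0212) and -0.39 in wt (adjusted p = 0.00439). Ovol2 did not pass, with log2 changes of -0.01 in KO and 0.06 in wt. The ETS factor genes Elf5 (log2 1.11 in KO and 1.47 in wt) and Ehf (0.86 in KO and 1.67 in wt) rose in both genotypes, as Elf3 did. Ets1, also an ETS factor gene, rose in KO (0.59) and did not pass in wt (0.25, adjusted p = 0.131). Klf3 rose by 1.23 in KO and 0.93 in wt, and Klf5 by 0.30 in KO and 0.28 in wt. Trp73, the p63 relative, did not pass, with -0.17 in KO and 0.01 in wt.

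In the difference between responses 2 of the 39 factors passed, against 2.29% of all genes. Ehf, like Elf3, had a smaller rise in KO (log2 difference -0.81 ± 0.17, SE, adjusted p = 0.0255). Ehf averaged 836 ± 134 in KO paraquat and 457 ± 38.6 in KO sham, and 1019 ± 37.1 in wt paraquat and 320 ± 29.7 in wt sham (SD, n = 3 each). Its KO sham level was the higher of the sham groups (log2 0.51, adjusted p = 0.0148). Dlx5, a homeobox gene, had a positive difference (log2 1.05 ± 0.21, adjusted p = 0.0204). It had a fall in wt (log2 -0.83) and a change of 0.23 in KO that did not pass. Its KO sham level was the lower of the sham groups, 125 ± 24.2 against 198 ± 42.5 in wt sham (log2 -0.66, adjusted p = 0.0121). Under paraquat the genotypes did not pass for Dlx5 (log2 0.39, adjusted p = 0.326). The calls of Ehf and Dlx5 were not followed under the alternatives.

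**Figure D4:**
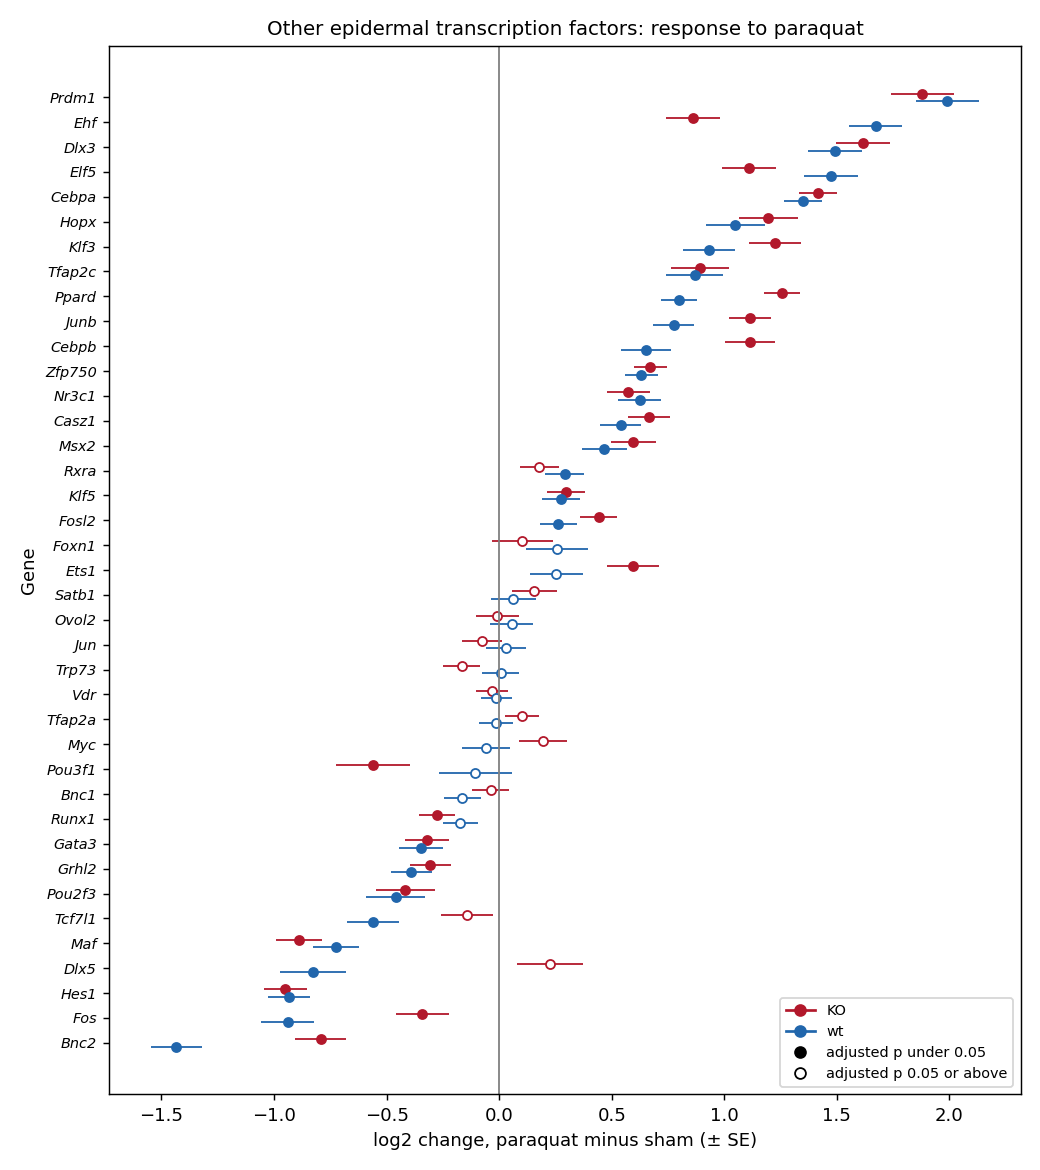
Points give the log2 change of paraquat minus sham (x axis, bars ± SE) of the 39 measured factors outside the 8 members, in KO (red) and wt (blue), ordered by the wt change. Filled points have an adjusted p under 0.05. Prdm1 lies at the top with 1.88 in KO and 1.99 in wt, and Bnc2 at the bottom in wt with -1.43.

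Genes that these factors are known for were counted next to them. Of 16 measured basal keratinocyte genes, 1 rose and 10 fell in KO under paraquat, and 1 rose and 11 fell in wt, with median log2 changes of -0.44 and -0.39. Of all genes, 14.5% rose and 12.6% fell in KO, and 14.9% rose and 14.3% fell in wt. Col7a1, the anchoring fibril collagen, fell on the log2 scale (-2.07 in KO and -2.26 in wt), and so did Lamb3, a laminin chain (-1.05 and -1.18). Of 25 suprabasal and barrier genes, 17 rose and 3 fell in KO, and 16 rose and 3 fell in wt, with medians of 0.89 and 0.93. Aloxe3, a lipoxygenase of the lipid barrier, rose by log2 2.96 in KO and 2.99 in wt. Tgm1, the transglutaminase that cross-links the envelope, rose by 2.03 in KO and 1.77 in wt. The 3 that fell in both genotypes, named after their values were seen, were the spinous layer keratins Krt1 (-1.62 in KO and -1.40 in wt) and Krt10 (-0.76 and -0.61) and the desmosomal cadherin Dsg1a (-0.37 and -0.33). In sham cultures 0 of these 25 were higher in KO than in wt in limma (1 at an unadjusted p under 0.05) and 9 were lower. Of all genes, 4.58% were higher and 5.67% lower in KO sham. Of the 16 basal genes 1 was higher there and 0 lower (1 at an unadjusted p under 0.05). Under paraquat 5 barrier genes were lower in KO than in wt, against 0.451% of all genes. They were Lor, Flg, Dsc1, Cdsn and Ppl, named after their values were seen. Lor (log2 -0.95), Flg (-0.90), Dsc1 (-1.59) and Cdsn (-1.61) were already lower in KO sham than in wt sham, while Ppl (0.05) did not pass there. Probes of Dsg1a may share signal with its close relatives in the desmoglein cluster. Both lists were drawn up with earlier results of these data known.

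Markers of other cell types also moved under paraquat. Of all genes, 14.5% rose and 12.6% fell in KO, and 14.9% rose and 14.3% fell in wt. Of 8 melanocyte markers 4 rose in KO and 4 in wt, and their summed signal was 921 to 966 in KO paraquat against 481 to 532 in KO sham, and 930 to 1013 in wt paraquat against 427 to 505 in wt sham. The melanosome gene Mlana averaged 358 in KO paraquat and 69.7 in KO sham, and 379 in wt paraquat and 64.3 in wt sham. The melanocyte factor Sox10 stayed below the array medians, at 39.3 in KO paraquat and 37.7 in KO sham. Of 7 myeloid markers 2 rose in KO and 4 in wt, with Cd68 at 1346 in KO paraquat and 650 in KO sham, while the leukocyte gene Ptprc was at 17 in KO paraquat and 15 in KO sham. The others that rose, Itgam in both genotypes and Adgre1 and Csf1r in wt, averaged at most 43.7 in any group, near or below the array medians. The summed myeloid signal was 1396 to 1655 in KO paraquat against 760 to 853 in KO sham, and 1977 to 2070 in wt paraquat against 737 to 786 in wt sham. Most of that sum was Cd68, which averaged 1825 in wt paraquat and 587 in wt sham. Of 9 fibroblast markers 1 rose in each genotype, and of 6 endothelial markers 2 rose in KO and 3 in wt. The summed fibroblast signal was 351 to 368 in KO paraquat against 324 to 344 in KO sham, and 400 to 455 in wt paraquat against 337 to 391 in wt sham. The summed endothelial signal was 330 to 370 in KO paraquat against 226 to 238 in KO sham, and 399 to 476 in wt paraquat against 200 to 227 in wt sham. Kdr was the brightest gene of that list, at 149 in KO paraquat and 58 in KO sham, and 248 in wt paraquat and 53.3 in wt sham. Of the 8 hair follicle and sebaceous markers 2 rose and 2 fell in each genotype. Krt75 rose by log2 1.44 in KO and 1.90 in wt, Krt79, a keratin of the follicle opening, fell (log2 -0.97 in KO and -1.25 in wt), and Scd1 fell too (-0.84 in KO and -0.39 in wt). The other marker that rose was Lhx2 in KO (0.37) and Mc5r in wt (0.41), and Mc5r stayed below the array medians in all 4 groups. The summed signal of this list was 1180 to 1320 in KO paraquat against 1771 to 1877 in KO sham, and 1118 to 1228 in wt paraquat against 1116 to 1524 in wt sham. Without Scd1 it was 387 to 393 in KO paraquat against 288 to 322 in KO sham, and 430 to 499 in wt paraquat against 326 to 351 in wt sham. The part of these cell types in the rises of the 5 members was not tested.

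Genes whose pattern was most like that of each member were found by the root mean square (RMS) difference of log2 signals, centred on each gene's mean, over the 12 arrays. The arrays share treatment and genotype, and no test was made of the likeness. Nearest to Ovol1 was Serpinb8, a serine protease inhibitor (RMS difference 0.08), followed by Dusp14 (0.11) and Fam102b (0.11). Nearest to Grhl3 were Uaca (0.12), Ccng2 (0.13), a cyclin G gene, and Btbd3 (0.14). Nearest to Elf3 was Krt75, a keratin of the hair follicle companion layer (0.15), then Gramd1c (0.16) and Yod1 (0.17).

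Grhl1 was followed most closely by Tjp1, a tight junction scaffold (RMS difference 0.08), Wdr26 (0.08) and Ranbp9 (0.09). The nearest genes to Klf4 were Ghdc (0.10), Abhd17c (0.11) and Irs2, an insulin receptor substrate (0.11). Sox9 had Plppr2 (0.08), Ank2 (0.08) and Amz1 (0.10) nearest, and Bcl11b had Flrt3 (0.10), Rel (0.10), an NF-kB subunit, and Entpd7 (0.10). These are small beside the members' own RMS spread about their means for Grhl3 (1.01), Ovol1 (0.85) and Elf3 (0.84). They are a larger share of it for Sox9 (0.25) and Bcl11b (0.22).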

How the data were processed

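RNA of 12 samples was hybridised to 1 Affymetrix array each. The deposited values are 1 intensity value for each probe set and array. Per the submitters' processing notes, the authors used RMA and Affymetrix Expression Console (1.3.1.187). The values are whole numbers from 3 to 17695, read here as RMA signals on a linear scale, and their log2 was taken. The sources used here name no filter and no build for the probe sets. The platform annotation gives 1 gene symbol to 23521 of the 41345 probe sets, several to 1814 and none to 16010. Gene identifiers of 23328 were matched to RefSeq (GRCm38.p6). The brightest probe set by mean stood for each gene, which left 22180 genes with no filter.

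limma 3.58.1 under R 4.3.3 fitted a mean per group over all 12 arrays (lmFit, then eBayes). P-values, all 2-sided, were adjusted by the Benjamini-Hochberg method across all 22180 genes, and 0.05 was the threshold. The method was tested on simulated arrays. Same-numbered arrays correlated by -0.07 to 0.09 in their deviations from group means. For KO paraquat against KO sham and against wt paraquat, each array matched best with the same-numbered one. Deviations from means of 3 cannot settle whether the numbers pair samples, and the main fit did not pair them. Named are all 8 members, the 3 genes nearest to each called member (leaving out predicted, clone-named, microRNA, olfactory and receptor-segment genes), and up to 4 called genes per list and comparison in order of p, not all of which are printed. The members and lists were chosen with earlier results of these data known. Alternatives covered normalization, filtering, probe sets, the log2 offset, variance, weights, pairing and left-out arrays. Single genes were followed under them for the 8 members only.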

Additional observations from a re-analysis of the deposited data

Results flagged for a closer look

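The response of Elf3 to paraquat differed between genotypes by limma's test of the difference itself (KO response minus wt response, log2 -0.73 ± 0.17, SE, adjusted p = 0.0417). Elf3 averaged 138 ± 21.6 in KO paraquat and 59 ± 5.29 in KO sham, and 229 ± 16.5 in wt paraquat and 59.3 ± 5.69 in wt sham (SD, n = 3 arrays each). The sham groups overlap, and each KO paraquat array lies below each wt paraquat array. The call held in 7 of 22 alternatives.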

How the results depend on the processing

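The 5 rises in each paraquat comparison and the lower Sox9 in KO sham held in all 23 alternatives. Of 912 member values under alternatives, 854 kept direction and side of the threshold, 38 lost and 8 gained a call, and 12 turned sign, all in values that did not pass. In sham cultures the 3 calls between genotypes became 1 with only the arrays compared and 1 without wt sham 2 and KO paraquat 3, and 1 to 3 without single arrays. Under paraquat the 1 call became 2 with the filter on dim genes and with array weights, 3 with 16 added before log2 and with a variance trend, and 0 with every probe set tested, with only the arrays compared and without wt sham 2 and KO paraquat 3. It was 0 to 2 without single arrays. For the difference between responses the 1 call became 2 with the filter on dim genes, and 0 with a second quantile normalization, every probe set tested, array weights and without both arrays, and was 0 to 1 without single arrays. The cause was not tested.

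Without wt sham 2 and KO paraquat 3 the log2 change of Bcl11b in wt was -0.0629 and the Elf3 difference in sham 0.0149. Without single arrays these ranged from -0.0629 to 0.141 and from -0.0865 to 0.0495. The Klf4 difference under paraquat ranged from -0.00100 to 0.125, and the Trp63 difference between responses from -0.0238 to 0.0803. With the replicate number as a block, 5 members were called in KO and 5 in wt under paraquat, 2 between genotypes in sham, 1 under paraquat and 1 for the difference between responses. Bcl11b in sham then missed the threshold (adjusted p = 0.0584). Calls over all genes moved by more than 1.5 times in some settings. Between genotypes under paraquat 122 genes were called as reported, 3 with only the arrays compared, 44 without both arrays, 53 with every probe set, 223 with a variance trend, 228 with the filter, 231 with 16 added, 249 with weights and 30 to 171 without single arrays. In sham 2273 were called, 976 with only the arrays compared, 1360 without both arrays and 1418 to 2363 without single arrays. For the difference between responses 508 were called, 268 without both arrays, 297 with every probe set, 783 with a variance trend, 882 with 16 added, 894 with the filter and 250 to 700 without single arrays. Signals near the array medians, such as Elf3 in sham, are coarse from rounding, and 3 arrays per group limit the precision.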

Other observations

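Genes of hair follicle progenitors, the compartment where Sox9 acts, were counted in each comparison. Of 15 measured, 3 rose and 2 fell under paraquat in KO, against 14.5% of all genes that rose and 12.6% that fell. In wt 1 rose and 6 fell, against 14.9% and 14.3% of all genes. The median log2 changes were 0.06 in KO and -0.02 in wt. Lrig1, a growth factor receptor antagonist of stem cells, fell in both genotypes (log2 -1.001 ± 0.11 in KO and -0.96 ± 0.11 in wt, SE, n = 3 arrays per group, limma adjusted p = 1.59e-05 and 1.51e-05). Ptch1, the hedgehog receptor, fell too (-0.74 in KO and -0.70 in wt). Nfatc1 (log2 0.41) and Lhx2 (0.37), factors of follicle stem cells, rose in KO. In wt their changes of 0.08 and -0.02 did not pass. Neither did their differences between responses (limma adjusted p = 0.184 and 0.145). In sham cultures 2 of the 15 were higher (Ptch1 and Lrig1) and 2 lower (Gli2 and Foxc1) in KO, against 4.58% and 5.67% of all genes.

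Of the 25 barrier genes, 1 passed in the difference between responses, against 2.29% of all genes. Ppl, encoding the envelope protein periplakin, averaged 1340 ± 126 in KO paraquat and 1034 ± 63.2 in KO sham, and 1904 ± 129 in wt paraquat and 998 ± 55.3 in wt sham (SD, n = 3 each). The difference was -0.56 ± 0.13 (log2, SE, adjusted p = 0.0453). Whether this call holds under the alternatives was not tested.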
